A study of Mus musculus with 6 samples.

Results

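Genes for neurotrophins, their receptors and neuritin were followed in nucleus accumbens RNA, as 7 rows of the count tables chosen by name (Bdnf, Ntf3, Ntrk2, Ntrk3, Ngfr, Sort1 and Nrn1) out of 54658 listed genes. All 7 were found and all 7 passed the expression filter that left 17563 genes for testing. The tissue came from C57BL6 male mice aged 8 weeks, and the nucleus accumbens is a ventral striatal region studied for reward and drug action. In the Gas5 group, 3 libraries came from tissue injected with a herpes simplex virus vector (p1005+) carrying the long noncoding RNA Gas5 and EGFP, and in the GFP group 3 libraries came from tissue given such a vector carrying EGFP and no Gas5. Both groups therefore carried a virus injection and EGFP. The promoter of the insert, the cells it reached, the time from injection to dissection and whether mice were pooled into a sample were not given in the sources used here, so the p-values speak of the spread among these samples, which may be partly technical. Libraries are called by group and the letter A, B or C of the labels.

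Neurotrophins are secreted proteins that act on Trk receptor tyrosine kinases, which promote survival, growth and synaptic strengthening, and on a low-affinity receptor of the tumour necrosis factor receptor family. Much of the brain-derived neurotrophic factor protein of the rodent striatum is made by cortical neurons and carried there along their axons, while striatal neurons carry its receptor TrkB. Neuritin is a small membrane-anchored protein of neurons whose gene is induced by neuronal activity and by brain-derived neurotrophic factor, and it promotes the growth of neurites and synapses.

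Bdnf is known for its many alternative first exons, each with a promoter of its own and each spliced to 1 common coding exon. Promoter windows were taken from a table of RefSeq starts on GRCm38.p6, in which 4 of the 7 members were matched, with 7 starts for Bdnf, 2 for Ntf3 and 1 each for Ntrk2 and Ngfr. The 250 bases before a start are shown for a pair of Bdnf starts and for Ntrk2, because these are the called members with a window: the first Bdnf start lies in a stretch that the count tables leave out, and the third is the window in which the motif searched for was found. Capitals mark matches to TGACG, the core of the cAMP response element, searched on both strands, so that a match on the other strand reads CGTCA here.
Bdnf start 1, chr2:109674450-109674699, plus strand: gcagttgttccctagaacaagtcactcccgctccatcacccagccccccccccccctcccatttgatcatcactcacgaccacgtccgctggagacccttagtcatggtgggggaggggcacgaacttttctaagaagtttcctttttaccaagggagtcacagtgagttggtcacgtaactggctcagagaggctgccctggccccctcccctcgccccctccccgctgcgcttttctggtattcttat
Bdnf start 3, chr2:109692186-109692435, plus strand: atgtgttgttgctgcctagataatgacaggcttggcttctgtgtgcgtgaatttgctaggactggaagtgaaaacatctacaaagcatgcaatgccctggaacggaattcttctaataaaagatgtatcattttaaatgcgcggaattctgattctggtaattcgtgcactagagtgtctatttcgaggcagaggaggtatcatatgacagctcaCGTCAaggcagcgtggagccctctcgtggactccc
Ntrk2 start 1, chr13:58806319-58806568, plus strand: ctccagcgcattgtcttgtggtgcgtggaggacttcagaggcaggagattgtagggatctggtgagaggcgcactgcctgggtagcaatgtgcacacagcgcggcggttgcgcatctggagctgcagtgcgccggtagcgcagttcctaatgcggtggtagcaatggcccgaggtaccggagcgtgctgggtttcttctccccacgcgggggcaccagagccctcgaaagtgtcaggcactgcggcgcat
The core matched in 1 of the 11 windows of the members, that of Bdnf start 3, and it was present in 17.8% of 32851 windows of the same length over all genes. The full element TGACGTCA, which contains the core, was in 0 of the 11 windows and in 1.55% of all windows. The base composition also differed among the windows shown, with 58.0% G or C before Bdnf start 1, 45.6% before start 3 and 62.8% before Ntrk2, against a median of 52.4% over all windows.

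The counts are totals over the whole span of a gene, introns included, so the Bdnf starts cannot be told apart. Bases that 2 listed genes share are not counted in these tables: of 7465 genes of at least 500 bases that lie wholly within another listed gene, 0 had a count in any library, against 26812 of 35121 other genes. Bdnf (chromosome 2, 109674700 to 109727007, plus strand) loses 1892 of 52308 bases to Gm45346 on the opposite strand, which removes 18.3% of its annotated exon bases, including the exon at start 1. Nrn1 (chromosome 13, 36725361 to 36735131, minus strand) loses 29.9% of its span and 40.9% of its exon bases, and those exon bases are the 920 at its 3′ end that Fars2 on the opposite strand overlaps. Ntrk2 (chromosome 13, 58806569 to 59133970, plus strand) loses 10.4% of its span, Sort1 (chromosome 3, 108284082 to 108361511, plus strand) 7.75% and Ntrk3 (chromosome 7, 78175959 to 78738012, minus strand) 3.38%. Ntf3 (chromosome 6, 126101412 to 126166910, minus strand) and Ngfr (chromosome 11, 95568818 to 95587735, minus strand) share no base with a listed gene. Coordinates are those of GRCm38.

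Library totals ranged from 38605056 to 42524874 counts in the Gas5 group and from 32359052 to 56081575 in the GFP group. Gas5 itself stood at 22.6, 23.3 and 23.6 counts per 1000000 counts of the library (CPM, scaled by TMM) in the Gas5 libraries, against 18.6, 16.5 and 18.3 CPM in the GFP libraries, an increase of 0.38 on the log2 scale with an edgeR adjusted p of 0.0163, a call lost when GFP B was left out (0.33 on that scale, adjusted p 0.0727) or GFP C (0.40, adjusted p 0.0677). In the fit that takes the marker score described next as a covariate, where edgeR called 0 genes, its log2 fold change was 0.37 (adjusted p 0.995). Over all tested genes edgeR called 5.44% at an adjusted p below 0.05, with 3.96% lower and 1.48% higher in the Gas5 group. Markers of cortical excitatory neurons differed between the groups: 8 of 11 fell and 0 rose, and Slc17a7, their vesicular glutamate transporter, was at 5.75, 25.2 and 42.5 CPM in the Gas5 libraries, against 153, 217 and 247 CPM in the GFP libraries. The mean log2 CPM of these 11 genes, called the cortical marker score, was 1.96 in Gas5 A, 2.695 in Gas5 B and 2.85 in Gas5 C, against 3.86, 4.38 and 4.40 for the GFP libraries A, B and C. Their summed level lay between 189 and 247 CPM in the Gas5 group and between 414 and 555 CPM in the GFP group, and none of the 11 was at 0. The Gas5 sum rests mostly on Cux2, Rorb and Lamp5, at means of 91.2, 64.1 and 34.5 CPM there and 92.0, 87.8 and 32.2 CPM in the GFP group. Their log2 fold changes were -0.01, -0.45 and 0.10, while the median over the 11 was -2.62. Medium spiny neurons, the principal cells of the tissue, had 0 of 12 markers called, with Drd1 at 138 CPM ± 10.4 in the Gas5 group and 135 CPM ± 8.29 in the GFP group (SD, n = 3 each). Of 7 markers of GABAergic interneurons 1 fell, as did 1 of 9 of oligodendrocytes and 1 of 8 of endothelial and mural cells, with 0 higher in each, and 0 of 7 of microglia and 0 of 3 of oligodendrocyte precursors were called. Some lists leaned to 1 side with few calls. Oligodendrocyte markers had negative log2 fold changes in 9 of 9 (median -0.27), 6 of them at an unadjusted edgeR p under 0.05. Negative values were found for 0 of 7 microglia markers (median 0.23) and 0 of 5 cholinergic markers (median 0.46), with 4 in each list at such a p. Over all tested genes 45.8% were negative, and 3766 of 17563 had such a p. In bulk RNA, fewer cells of a type and less RNA per cell cannot be told apart.

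Of the 7 members, 3 fell in the Gas5 group and 0 rose, or 42.9%, where 3.96% of all tested genes fell. The members were chosen with earlier results of these data known, so their shares beside all tested genes are a description only. A call with a log2 fold change of -1 or below was made for 2 of them, Bdnf and Nrn1, and for 0.928% of all tested genes. Bdnf and Nrn1 fell by about the same large factor, Ntrk2 fell by a much smaller one, and Ntf3, Ntrk3, Ngfr and Sort1 did not pass the test. All 7 had a negative log2 fold change, with a median of -0.50, while 45.8% of all tested genes did and the median over them was 0.02. The groups did not overlap for 5 members (Bdnf, Ntrk2, Ngfr, Sort1 and Nrn1), as for 27.7% of all tested genes. For any 1 gene the exact permutation test over the 6 libraries cannot give less than p = 0.1, 2-sided.

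**Figure D1:**
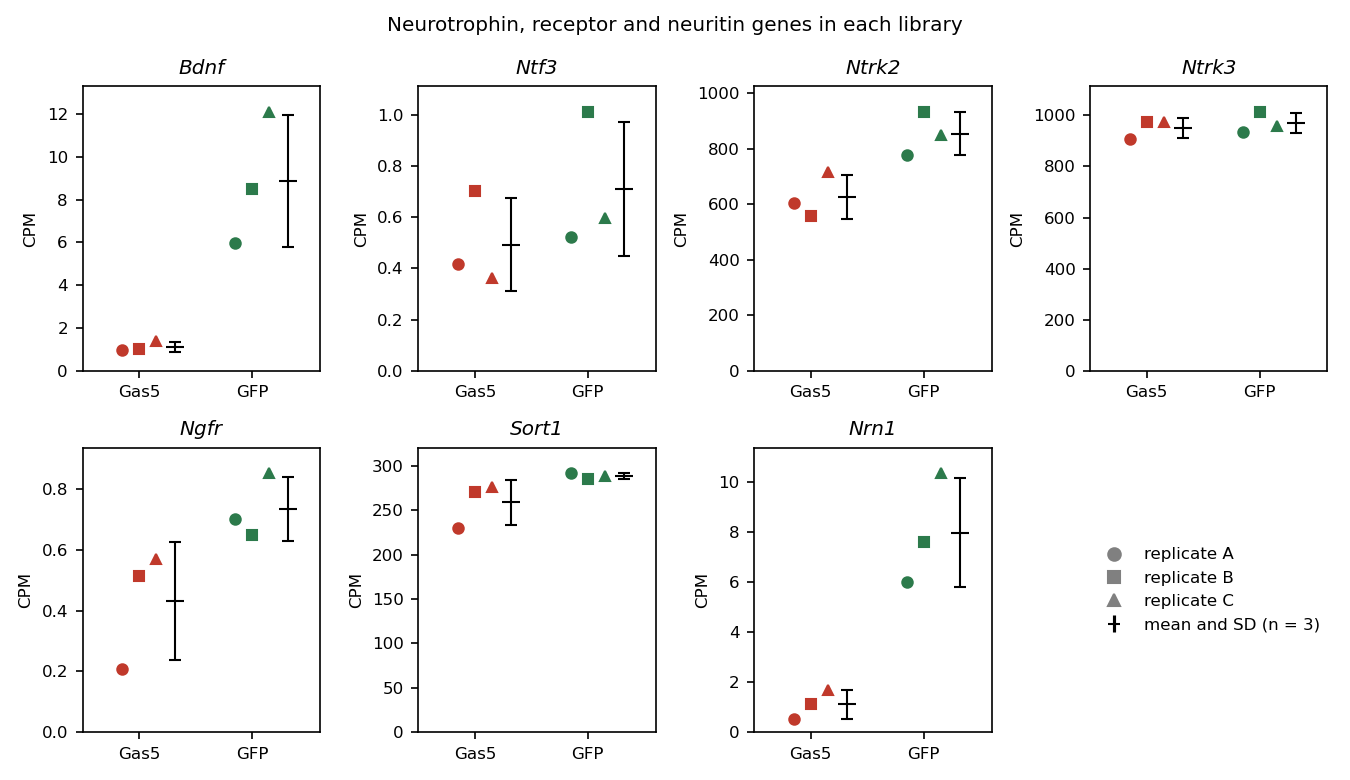
Level of each member in CPM (vertical axes, from 0) in the 3 Gas5 (red) and 3 GFP (green) libraries, with the mean and SD of each group in black. Bdnf and Nrn1 lie below 2 CPM in every Gas5 library and above 5 CPM in every GFP library, while the groups overlap for Ntf3 and Ntrk3.

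Bdnf, the brain-derived neurotrophic factor and the ligand of TrkB, stood at 0.974, 1.01 and 1.39 CPM in Gas5 A, B and C, against 5.96, 8.51 and 12.1 CPM in GFP A, B and C. Every Gas5 library was far below every GFP library, with means of 1.12 CPM ± 0.234 in the Gas5 group and 8.85 CPM ± 3.08 in the GFP group (SD, n = 3 each). The raw counts of Bdnf stood at 42, 43 and 54 in the Gas5 libraries, against 331, 328 and 384 in the GFP libraries. Bdnf was thus 7.81-fold lower in the Gas5 group, a log2 fold change of -2.96 (standard error 0.284, 95% interval -3.61 to -2.32, edgeR adjusted p 0.00473). Bdnf ranked 10 by p among the tested genes, and only 14 of them had a lower log2 fold change. The call held in all 6 fits that leave out a library, with log2 fold changes between -3.20 and -2.68 and adjusted p between 0.00133 and 0.0290.

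Ntf3, which encodes neurotrophin-3, the preferred ligand of TrkC, was near the limit of what these libraries resolve. It stood at 0.417, 0.701 and 0.361 CPM in the Gas5 libraries, against 0.522, 1.01 and 0.598 CPM in the GFP libraries, on raw counts of 18, 30 and 14 in the Gas5 libraries, against 29, 39 and 19 in the GFP libraries. The groups overlapped, and the exact Poisson 95% interval of 1 library, such as 0.247 to 0.660 CPM in Gas5 A, also held the values of GFP A and GFP C (counting error only). Its log2 fold change of -0.50 had a 95% interval from -1.33 to 0.33 and an adjusted p of 0.472. That interval holds both 0 and the value found for Ntrk2, so a difference of that size was not detectable at this depth.

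Among the receptors, Ntrk2 and Ntrk3 were the most heavily counted members. Ntrk2 encodes TrkB, whose full-length form signals in neurons and whose truncated forms are abundant in astrocytes, and the counts do not separate these forms. It stood at 605, 558 and 715 CPM in the Gas5 libraries, against 777, 932 and 850 CPM in the GFP libraries, with every Gas5 library below every GFP library. The means were 626 CPM ± 80.5 in the Gas5 group and 853 CPM ± 77.6 in the GFP group (SD, n = 3 each). Ntrk2 was thus 1.36-fold lower in the Gas5 group, a log2 fold change of -0.45 (standard error 0.102, 95% interval -0.68 to -0.21, edgeR adjusted p 0.0436). This call was close to the threshold: it was lost without Gas5 A (adjusted p 0.0867), without Gas5 B (0.0736), without GFP B (0.176), without GFP C (0.154) and under upper quartile scaling (0.0503), while the log2 fold change in these fits stayed between -0.45 and -0.37. Astrocyte markers, a second cell type in which Ntrk2 is expressed, had 1 of 9 tested members higher and 0 lower, with a summed level between 2551 and 3053 CPM in the Gas5 group and between 2906 and 3106 CPM in the GFP group. Most of that sum was the glutamate transporter gene Slc1a2, at 2209 CPM in the Gas5 group and 2561 CPM in the GFP group (log2 fold change -0.21, adjusted p 0.258), while 7 of the 9 had a positive log2 fold change and the median over them was 0.28. Gfap lies wholly within another listed gene, so it has no counted base and was not measured. The part of these cells in the Ntrk2 result was not tested.

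Ntrk3, which encodes TrkC, the receptor of neurotrophin-3, did not pass the test, and its groups overlapped. It stood at 906, 975 and 972 CPM in the Gas5 libraries, against 936, 1013 and 959 CPM in the GFP libraries. The log2 fold change was -0.03, with a 95% interval from -0.17 to 0.11 and an adjusted p of 0.837, and the sign turned without Gas5 A (0.000696) and without GFP B (0.0051). Set against each other within a library, there were 66.8, 57.2 and 73.5 counts of Ntrk2 per 100 counts of Ntrk3 in the Gas5 libraries, against 83.0, 91.9 and 88.7 in the GFP libraries. This ratio, which does not depend on library scaling and was chosen after the data were seen, did not overlap between the groups (exact permutation p = 0.1, the smallest possible).

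Ngfr encodes the low-affinity neurotrophin receptor, which in the adult forebrain is best known from cholinergic neurons and also binds proneurotrophins. It stood at 0.209, 0.514 and 0.568 CPM in the Gas5 libraries, against 0.702, 0.648 and 0.850 CPM in the GFP libraries, on raw counts of 9, 22 and 22 in the Gas5 libraries, against 39, 25 and 27 in the GFP libraries. The groups did not overlap, but Gas5 B and C lay close under GFP B, within their counting intervals (0.322 to 0.779, 0.356 to 0.860 and 0.420 to 0.957 CPM). Its log2 fold change of -0.76 had a 95% interval from -1.57 to 0.04 and an adjusted p of 0.256, and it ranged from -1.02 to -0.43 when 1 library was left out. Of 5 tested cholinergic markers 1, Isl1, rose and 0 fell, with a summed level between 47.9 and 56.8 CPM in the Gas5 group and between 31.3 and 44.9 CPM in the GFP group. Chat, the acetylcholine-synthesizing enzyme, was at 11.3, 12.1 and 13.0 CPM in the Gas5 libraries, against 11.1, 10.5 and 8.88 CPM in the GFP libraries. Slc18a3, the other of the 6 listed, lies wholly within another listed gene and was not measured. The part of these cells in the Ngfr values was not tested.

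Sort1 encodes sortilin, a sorting receptor that binds proneurotrophins with the low-affinity receptor and also guides brain-derived neurotrophic factor into the regulated secretory pathway. It stood at 230, 271 and 276 CPM in the Gas5 libraries, against 291, 285 and 288 CPM in the GFP libraries. The means were 259 CPM ± 25.5 in the Gas5 group and 288 CPM ± 3.31 in the GFP group (SD, n = 3 each), and Gas5 A was the lowest library. The log2 fold change was -0.15 with a 95% interval from -0.32 to 0.01 and an adjusted p of 0.260, so Sort1 did not pass the test although the groups did not overlap.

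Nrn1, which encodes neuritin, was, like Bdnf, much lower in the Gas5 group. It stood at 0.533, 1.15 and 1.68 CPM in Gas5 A, B and C, against 6.01, 7.57 and 10.3 CPM in GFP A, B and C. Every Gas5 library was below every GFP library, with means of 1.12 CPM ± 0.572 in the Gas5 group and 7.97 CPM ± 2.19 in the GFP group (SD, n = 3 each). The raw counts of Nrn1 stood at 23, 49 and 65 in the Gas5 libraries, against 334, 292 and 328 in the GFP libraries. Nrn1 was thus 7.12-fold lower in the Gas5 group, a log2 fold change of -2.83 (standard error 0.336, 95% interval -3.60 to -2.06, edgeR adjusted p 0.00642). The call held in all 6 fits that leave out a library, with log2 fold changes between -3.24 and -2.49 and adjusted p between 0.00573 and 0.0377. There were 183, 87.8 and 83.1 counts of Bdnf per 100 counts of Nrn1 in the Gas5 libraries, against 99.1, 112 and 117 per 100 in the GFP libraries, with overlap (exact permutation p = 1.0, a ratio chosen after the data were seen).

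**Figure D2:**
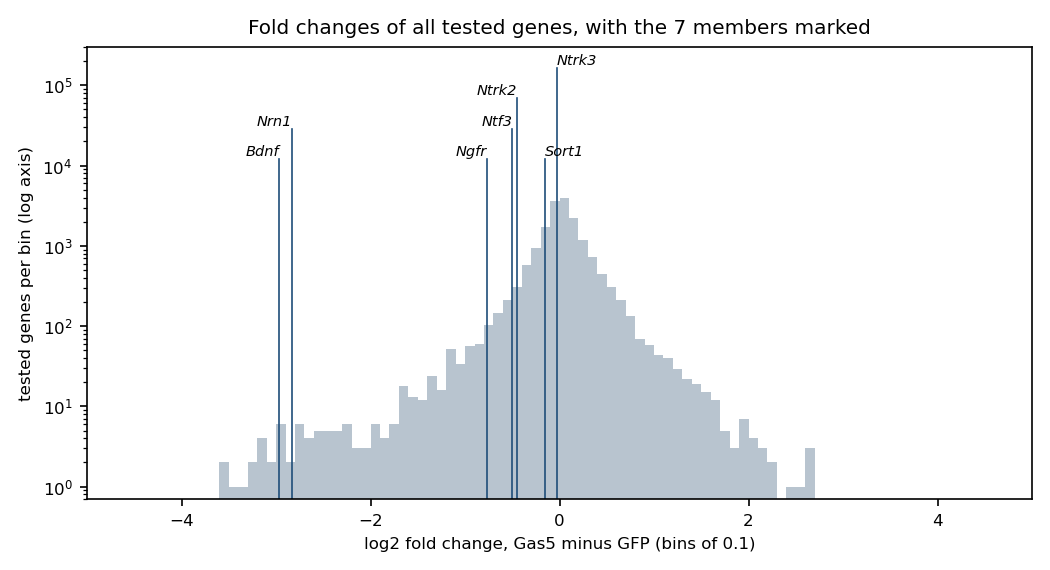
Number of tested genes per bin of log2 fold change, Gas5 minus GFP (horizontal axis; log vertical axis), with the members marked by vertical lines. Bdnf and Nrn1 lie in the far lower tail, Ngfr, Ntf3 and Ntrk2 on the lower shoulder, and Sort1 and Ntrk3 near the centre.

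Bdnf and Nrn1 were lower in the libraries with lower cortical marker scores, and their counts can be set against those of Slc17a7. There were 169, 39.9 and 32.8 counts of Bdnf per 1000 counts of Slc17a7 for the Gas5 libraries A, B and C, against 38.9, 39.2 and 49.0 for the GFP libraries. For Nrn1 there were 92.7, 45.5 and 39.4 in the Gas5 libraries, against 39.3, 34.9 and 41.8 in the GFP libraries. Gas5 A, the library with the fewest Slc17a7 counts, stood above the rest in both ratios, and the other 5 libraries lay between 32.8 and 49.0 for Bdnf and between 34.9 and 45.5 for Nrn1. The exact permutation p was 0.8 for Bdnf and 0.2 for Nrn1, 2-sided, and both ratios were chosen after the data were seen. When edgeR was given the marker score as a covariate, the log2 fold changes were -1.27 for Bdnf (95% interval -2.71 to 0.17), -0.52 for Nrn1 (-1.71 to 0.67) and -0.09 for Ntrk2 (-0.67 to 0.49), and no member and no gene was called, with adjusted p of 0.995 for each of these 3. With the score Ntf3 (0.49, 95% interval -1.89 to 2.88), Ntrk3 (0.19, -0.12 to 0.50), Ngfr (0.89, -1.05 to 2.83) and Sort1 (0.19, -0.17 to 0.54) had positive log2 fold changes. All of these intervals hold 0, so the signs are not resolved. The score separates the 6 libraries as the groups do, so score and group cannot be told apart.

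**Figure D3:**
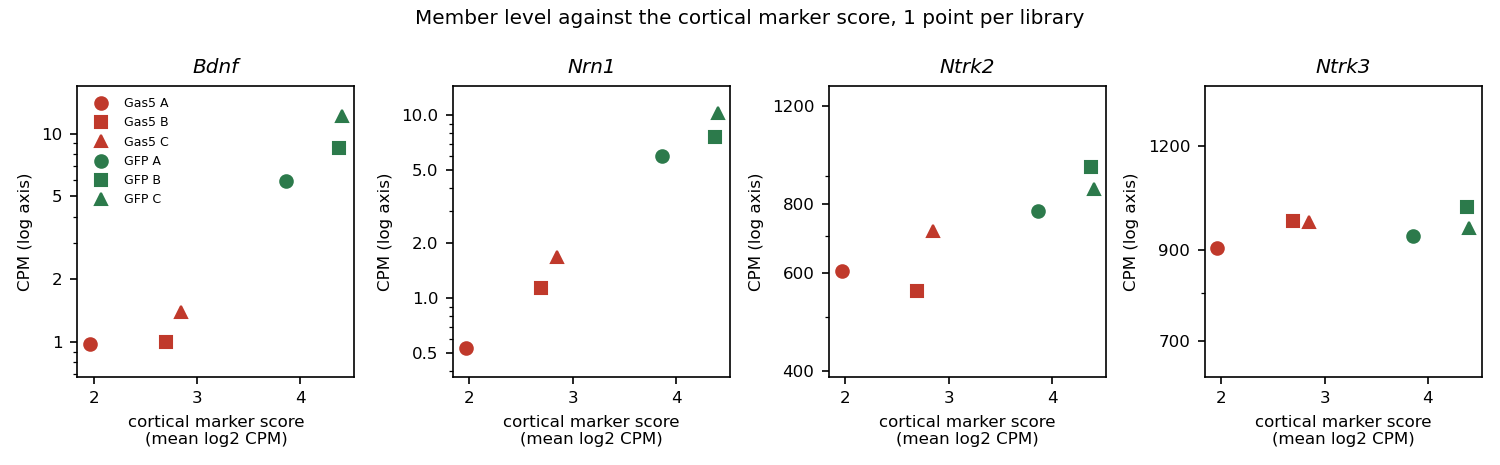
Level of Bdnf, Nrn1, Ntrk2 and Ntrk3 in CPM (log vertical axes) against the cortical marker score in mean log2 CPM (horizontal axes), 1 point per library, Gas5 in red and GFP in green. The 3 Gas5 libraries have scores of 1.96 to 2.85 and the 3 GFP libraries 3.86 to 4.40, and Bdnf and Nrn1 separate with them while Ntrk3 does not.

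Per kilobase of counted span the order of the members in the Gas5 group was Sort1, Ntrk2, Ntrk3, Nrn1, Ngfr, Bdnf and Ntf3, with means of 3.62, 2.14, 1.75, 0.163, 0.0227, 0.0223 and 0.00753 CPM per kilobase. Among neighbours in that order only Ngfr and Bdnf overlapped between Gas5 libraries, from 0.0110 to 0.0300 for Ngfr and from 0.0193 to 0.0276 for Bdnf. In the GFP group the order was the same except that Bdnf stood above Ngfr, and the means of Sort1, Ntrk2, Ntrk3, Nrn1, Bdnf, Ngfr and Ntf3 were 4.03, 2.91, 1.79, 1.16, 0.176, 0.0388 and 0.0108 CPM per kilobase. No neighbours overlapped between GFP libraries. These levels rest on introns as well as exons, so a gene with long introns is not ranked by its mature RNA.

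Other genes of the pathway were read in 6 lists, chosen with earlier results of these data known, so their shares are a description. The lists held 107 genes in all, of which 98 were tested. Of these, 10 fell (10.2%) and 0 rose, against 3.96% and 1.48% of all tested genes, with a median log2 fold change of -0.01 against 0.02. Without GFP B, and likewise without GFP C, 1 of these 10 was still called, Serpini1 (adjusted p 0.0280 and 0.0174). Given the marker score as a covariate, none of the 10 was called, in a fit that called 0 of all tested genes. Their log2 fold changes in that fit were -0.75 for Pcsk1, -0.53 for Serpini1, -0.40 for Arc, -0.37 for Nr4a1 and -0.26 for Egr1. They were -0.15 for Pcsk5, -0.03 for Lingo1, -0.0037 for Shc3, 0.04 for Sorcs2 and 0.11 for Homer1. Because score and group cannot be told apart, these values do not sort the 10 genes. The part of cortical RNA in these results was not tested.

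Among the other ligands, receptors and sortilin relatives, 1 of 6 tested genes fell. Sorcs2, a sortilin relative that binds proneurotrophins, was at 224, 254 and 255 CPM in the Gas5 libraries, against 298, 345 and 352 CPM in the GFP libraries (log2 fold change -0.44, edgeR adjusted p 0.0200). Sorcs1, another relative, did not pass the test (log2 fold change -0.23, adjusted p 0.368). Ntf5, which encodes another ligand of TrkB, was not tested and had at most 2 counts in a library.

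Enzymes that cut proneurotrophins, and inhibitors of such enzymes, had 3 of 10 tested genes lower and 0 higher. Serpini1, which encodes neuroserpin, an inhibitor of tissue plasminogen activator, was at 63.3, 64.3 and 69.3 CPM in the Gas5 libraries, against 108, 115 and 125 CPM in the GFP libraries, 1.77-fold lower (edgeR adjusted p 0.00352). The proprotein convertase genes Pcsk1 and Pcsk5 were 1.91-fold and 1.62-fold lower (edgeR adjusted p 0.01001 and 0.0184), and Pcsk5 was not called without Gas5 C (0.0505). Furin, the ubiquitous convertase, had a log2 fold change of -0.01. The list therefore holds both enzymes and an inhibitor among its lower genes.

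Signalling parts downstream of Trk receptors had 1 of 38 tested genes lower and 0 higher, or 2.63%, near the 3.96% of all genes. The 1 was Shc3, a neuronal adaptor of Trk receptors, at 158, 154 and 177 CPM in the Gas5 libraries, against 187, 223 and 211 CPM in the GFP libraries (log2 fold change -0.35, edgeR adjusted p 0.0430). Shc3 was not called without Gas5 A (adjusted p 0.0891), without Gas5 B (0.0788) or under upper quartile scaling (0.0511). Map2k1, a kinase of the ERK cascade, did not pass (log2 fold change 0.19, adjusted p 0.0840). Of 13 tested interactors of the low-affinity receptor, Lingo1, a co-receptor, was the 1 that fell, at 118, 130 and 124 CPM in the Gas5 libraries, against 151, 184 and 202 CPM in the GFP libraries (log2 fold change -0.53, adjusted p 0.0224; 0.0544 without Gas5 C), and Irak1, a signalling kinase, did not pass (0.19, adjusted p 0.140).

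Genes that neurotrophins or neuronal activity induce had 4 of 17 tested members lower (23.5%) and 0 higher, against 3.96% and 1.48% of all tested genes. This list too was chosen with earlier results of these data known. Log2 fold changes were negative in 16, with a median of -0.39, against 45.8% and 0.02 over all tested genes. The 4 were the transcription factor gene Egr1 at a log2 fold change of -0.67, Arc at -0.69, the nuclear receptor gene Nr4a1 at -0.75 and the postsynaptic scaffold gene Homer1 at -0.35, with edgeR adjusted p of 0.0163, 0.0293, 0.0436 and 0.0438. Homer1 was not called under upper quartile scaling (adjusted p 0.0526), without Gas5 A (0.0742), without Gas5 B (0.0769) or without GFP A (0.0559). With robust dispersion Arc (adjusted p 0.0611) and Nr4a1 (0.0990) were not called. Arc, which encodes a synaptic protein needed for memory, was at 48.0, 37.6 and 56.9 CPM in the Gas5 libraries, against 69.5, 74.5 and 86.7 CPM in the GFP libraries, with no overlap. Vgf, a neuropeptide precursor gene, did not pass the test (log2 fold change -0.16, adjusted p 0.396). Without GFP B or without GFP C 0 of these 17 were called, and without Gas5 A 1 was. The other neurotrophic factors and receptors, among them the glial cell line-derived family, had 0 of 14 called with edgeR, 0 with DESeq2 and 1 with the exact test of edgeR. At an unadjusted edgeR p under 0.05 there were 4 of the 14, against 3766 of all 17563 tested genes. The nearest was Lif, which encodes leukemia inhibitory factor, at 1.23, 0.982 and 0.645 CPM in the Gas5 libraries, against 0.468, 0.389 and 0.441 CPM in the GFP libraries, with an edgeR adjusted p of 0.0625. Il6st, a shared signalling receptor that leukemia inhibitory factor uses, had an adjusted p of 0.167.

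**Figure D4:**
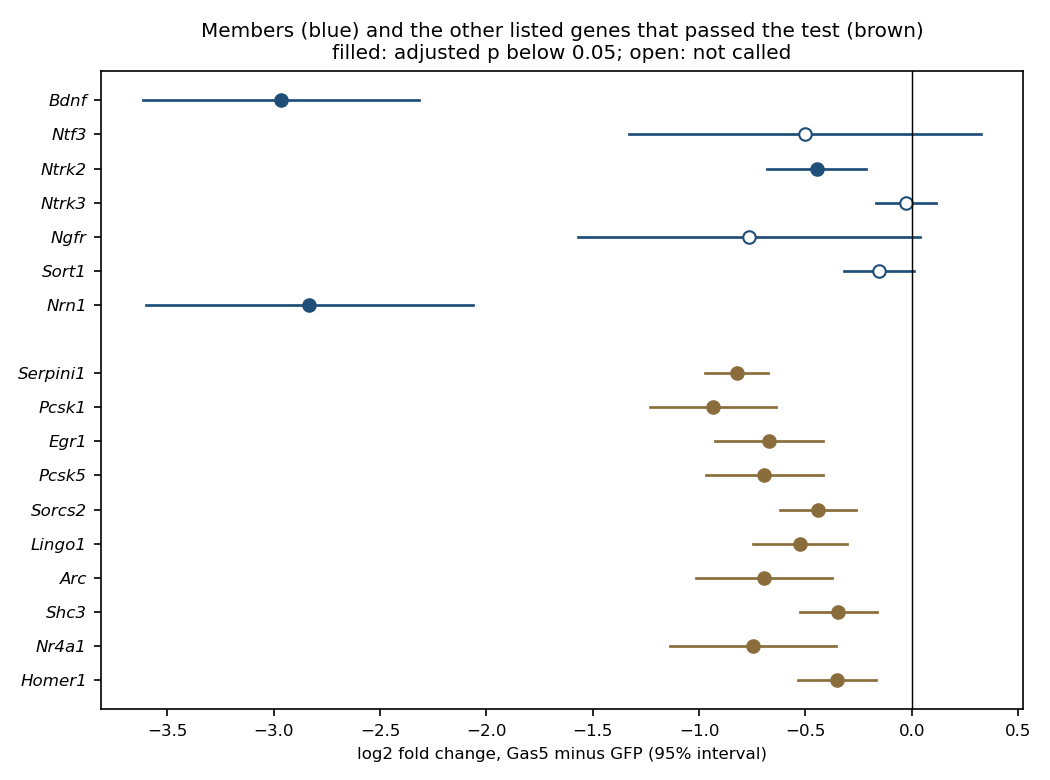
Log2 fold change, Gas5 minus GFP, with its 95% interval (horizontal axis) for the members (blue) and for the 10 other listed genes that passed the test (brown), filled where the adjusted p was below 0.05. All 13 called genes lie below 0, and Bdnf and Nrn1 lie below -2 with the whole of their intervals.

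The genes whose levels were most like those of a member were found by Pearson's r of log2 CPM over the 6 libraries. The search ran among 12842 genes with a mean of at least 1 CPM. It left out genes with a placeholder symbol, such as a Gm number or an ending in Rik, and symbols listed at more than 1 place. The r values are a description, since the libraries fall into 2 groups and share their scaling and depth. The 5 most like Bdnf were Rprml, Ankrd27, Ubash3b, Serpini1 and Nptxr, with r between 0.997 and 0.999, of which Ankrd27 was not called. Nptxr, a neuronal pentraxin receptor of synapses, was at 34.2 CPM in the Gas5 group and 74.9 CPM in the GFP group. The 5 most like Nrn1 were Neurod2, Rph3a, Afap1, Lmbrd1 and Abca7, with r between 0.998 and 0.999, of which Lmbrd1 was not called. Neurod2, a transcription factor gene of cortical neurons, was at 0.982 CPM in the Gas5 group and 7.01 CPM in the GFP group. The 5 most like Ntrk2 were Fut9, Uap1, Zbtb46, Gpr3 and Ctnnd2, with r between 0.987 and 0.994, of which Zbtb46 was the 1 called.

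**Figure D5:**
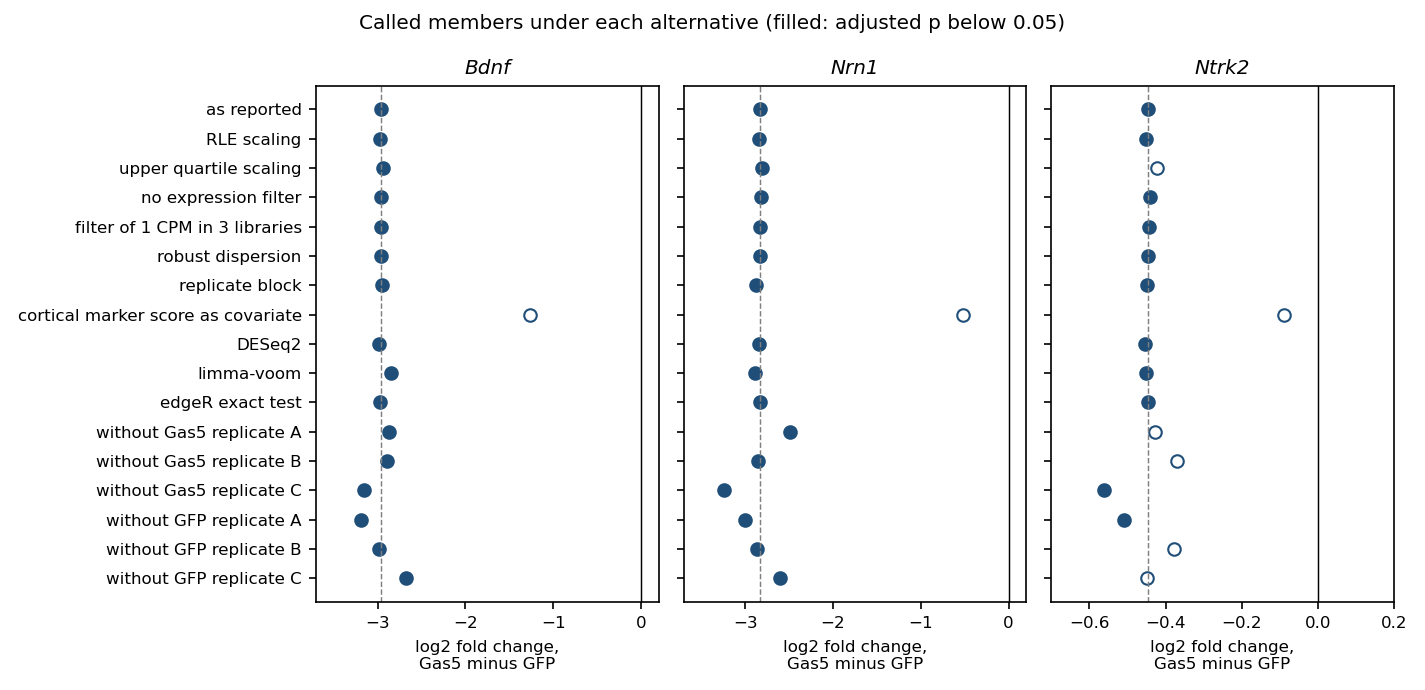
Log2 fold change of the 3 called members (horizontal axes) under each alternative (rows), filled where the adjusted p was below 0.05, with the reported value as a dashed line. Bdnf and Nrn1 stay called in every row except that with the cortical marker score, and Ntrk2 is lost in 6 rows.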

How the data were processed

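Per the labels' protocols, total RNA (100 ng) was depleted of ribosomal RNA and made into strand-marking libraries with 12 cycles of PCR. The deposited files hold raw counts of each gene, as whole numbers with no normalization. Named in the submitters' processing notes are the build GRCm38.p6, STAR 2.7.0, Trim Galore 0.4.4, bcl2fastq 1.8.4, edgeR 3.20.9 and featureCounts 1.5.0-p3. The annotation release and the strand setting were not given in the sources used here. Genes nested on the opposite strand, such as Gm47423 and 4930415C11Rik within Ntrk2, also had 0 counts, so the counting appears not to have separated the strands. The count of a gene can therefore hold reads of the opposite strand. Per the file headers, the length of a gene is its whole span. The ends of all 7 members matched GENCODE M21, which gave exons, and promoters came from RefSeq on GRCm38.p6.

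In R 4.3.3 with edgeR 4.0.16, genes passed filterByExpr at its defaults, TMM scaled the libraries, and Gas5 minus GFP was tested over the 6 libraries by the quasi-likelihood F-test, 2-sided, adjusted by Benjamini and Hochberg over 17563 genes (threshold 0.05). Standard errors are the log2 fold change divided by the root of F. Intervals are 95%. CPM are scaled by TMM, and log2 CPM used a pseudocount of 0.5. No pairing was used, since same-letter libraries did not all deviate together, which does not exclude a pairing. No 2 replicates were alike enough to be repeat deposits of 1 library (chi-square per degree of freedom from 4.82 to 23.3), which leaves unknown whether the animals were separate.

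The members and all lists were chosen with earlier results of these data known. Named genes are the members, Gas5, the called members of each list up to 6 (or its 2 of smallest p), the 5 most alike genes, and Slc17a7, Drd1 and Chat. Ntf5, Furin, Vgf, Isl1, Slc1a2, Gfap, Slc18a3, Cux2, Rorb and Lamp5 were named after their values were seen. Alternatives were RLE and upper quartile scaling, other filters, DESeq2 1.42.0, limma-voom (limma 3.58.1), robust dispersion, edgeR's exact test, a block for the replicate letter, the cortical marker score as a covariate, other thresholds and leaving out each library. The ratios of counts within a library were added after the data were seen. Some list genes are not reported here.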

Additional observations from a re-analysis of the deposited data

How the results depend on the processing

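Bdnf and Nrn1 fell in 15 of 16 alternatives, with log2 fold changes from -3.20 to -2.68 and from -3.24 to -2.49, and Ntrk2 in 10 of 16, from -0.56 to -0.37, leaving aside the cortical marker score. With that score as a covariate the counts of called genes were 0 higher and 0 lower over all genes, 0 members and 0 list genes, and Ntf3 (0.49), Ntrk3 (0.19), Ngfr (0.89) and Sort1 (0.19) turned positive, none called. Ntrk3 ranged from -0.0537 to 0.0051 when 1 library was left out. Over all genes, calls were 260 higher and 695 lower, against 656 higher without the expression filter, 681 higher and 1093 lower in edgeR's exact test, 483 higher in DESeq2, 3 and 97 at a threshold of 0.01 and 661 and 1086 at 0.1. Leaving out 1 library gave 4 to 251 higher and 101 to 611 lower, the fewest without GFP B (4 and 111) and GFP C (6 and 101), against 112 higher without Gas5 A. Over the lists, 10 genes were lower and 0 higher, against 17 and 2 without the filter, 16 and 1 in DESeq2, 2 higher in the exact test, 1 higher with robust dispersion, 1 lower at 0.01 and 3 higher at 0.1, and 1 to 12 lower and 0 to 2 higher without 1 library. Whether the letters of the labels pair the libraries was not settled. Correlations of same-letter deviations were 0.16, 0.18 and -0.09 for A, B and C, and those of different letters ran from -0.23 to 0.06. With the replicate block, calls were 510 higher and 928 lower over all genes, 3 members lower, and 2 list genes higher and 15 lower. Low counts limit Ntf3 and Ngfr.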
